A study of Mus with 6 samples.

Results

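The S100 genes described here are S100a4 (ENSMUSG00000001020), S100a6 (ENSMUSG00000001025), S100a8 (ENSMUSG00000056054), S100a9 (ENSMUSG00000056071), S100a10 (ENSMUSG00000041959) and S100a11 (ENSMUSG00000027907), 6 of the 35304 Ensembl gene IDs counted in 4T1 cells, a mouse mammary carcinoma cell line. They were chosen as members of 1 gene family, by their IDs, with earlier results of these data known. RNA sequencing compared 3 untreated samples of 4T1 with 3 samples that received isopimaric acid (IPA) at 10 µg/mL for 24 h. Isopimaric acid is a plant diterpene acid known as an opener of large-conductance, calcium-activated potassium channels. All samples are the same line in RPMI medium with fetal bovine serum, and the labels give no vehicle for the untreated samples. The series title names calcium pathways and metastasis, which is the question this family bears on. Nothing in the labels tells whether replicates came from separate cultures, and the p-values below therefore reflect the spread of these samples alone, possibly a technical one. Markers of 4T1 or of other cells were not analysed here, because the IDs carry no gene names in the file.

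S100 proteins are small calcium-binding proteins built around a pair of EF-hand loops, a helix-loop-helix fold that holds a calcium ion. Most form dimers, and calcium binding turns a face outward that grips other proteins. Inside the cell they act on the cytoskeleton, membranes and enzymes, and several are also released and act on receptors such as RAGE and TLR4. In breast tumours S100A4 is best known for its link to metastasis, and S100A8 with S100A9 for inflammation and the recruitment of myeloid cells.

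All 6 genes lie on mouse chromosome 3, where the RefSeq gene table of GRCm38.p6 lists 15 S100 genes. S100a4 spans chr3:90603770-90606045 and S100a6 chr3:90612894-90614414, 6.8 kb further on, with S100a5 between them. S100a8 spans chr3:90669071-90670034 and S100a9 chr3:90692630-90695721, neighbours with 22.6 kb between them. S100a11, at chr3:93520496-93526288, and S100a10, at chr3:93555117-93564645, form a second group 2.82 Mb beyond S100a9. None of the 6 overlaps another gene of that table. The same table lists a pseudogene, S100a11-ps, at chr12:73961087-73961577. How reads that match several places were counted is not given in the sources used here, so the level of S100a11 is uncertain to that extent. No ID had counts within 2% of those of S100a4, S100a6, S100a10 or S100a11 in every library.

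The libraries held 3410411 to 58924711 counts. Untreated replicate 2 stood apart: its correlation in log2 CPM (read counts scaled to a common library size) with the others was 0.779 to 0.811, against 0.922 to 0.987 among the other 5. Genes are the points of these correlations and do not count as independent replicates. IPA replicate 1 was the shallowest library. Results are therefore given for all 6 libraries and without untreated replicate 2. CPM values here are scaled to the library total unless TMM factors are named, and are not divided by gene length, so they are compared between libraries and not between genes. RNA from whole cultures cannot tell fewer expressing cells apart from less RNA per cell.

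By the edgeR test none of the S100 genes passed over all 6 libraries, and without untreated replicate 2 S100a4 and S100a11 fell with IPA. S100a4, S100a6, S100a10 and S100a11 were abundant, with at least 197 counts in every library, and these 4 passed the filter on low counts. S100a8 and S100a9 were almost absent and did not pass it. The edgeR quasi-likelihood test called 0% of 24935 genes lower with IPA over all 6 libraries at an adjusted p under 0.05, and 0 of the 4 S100 genes. Before adjustment the edgeR p was below 0.05 for 1560 of the 24935 genes, both directions counted, and for each of the 4 S100 genes. That result depended on the setting, over the same 6 libraries. It held for S100a4 alone with library totals in place of TMM factors, and again with a block for replicate number. With limma-voom it held for S100a4 and S100a11. With the other factors and filters, DESeq2 and limma-voom with quality weights it held for all 4. DESeq2 on the same libraries called 45 genes higher and 83 lower (0.333%), and limma-voom called 0 in either direction; neither called an S100 gene. With sample quality weights, of which untreated replicate 2 had the lowest, limma-voom called 492 genes higher and 755 lower (3.03%) over the same 6 libraries, and 4 of the 4 S100 genes lower. Without untreated replicate 2, edgeR called 2.2% of 25592 genes lower with IPA, and 2 of the 4 S100 genes. It called 1.26% of genes higher, and 0 S100 genes. These are 322 genes higher and 564 lower; with library totals in place of TMM factors the same 5 libraries gave 691 higher and 327 lower.

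S100a4, also called metastasin or fibroblast-specific protein 1, binds non-muscle myosin and is tied to cell motility. In untreated replicates 1, 2 and 3 its level was 58.7, 165 and 95.9 CPM. In IPA replicates 1, 2 and 3 it was 57.8, 43.6 and 35.5 CPM. The 3 IPA libraries were all below the 3 untreated ones, but by very little at the edge, where IPA replicate 1 lay next to untreated replicate 1. The count of 197 behind the value of IPA replicate 1 gives an exact 95% Poisson interval of 49.98 to 66.4 CPM, which holds the value of untreated replicate 1. Group means were 106 ± 53.8 CPM untreated and 45.6 ± 11.3 CPM with IPA (SD, n = 3 each). The fitted log2 fold change over 6 libraries was -1.56 ± 0.49 (SE; 95% interval -2.73 to -0.40; edgeR adjusted p = 0.657). Without untreated replicate 2, S100a4 fell by 0.91 ± 0.20 on the log2 scale (interval -1.35 to -0.47; edgeR adjusted p = 0.0271), a level 1.88-fold lower with IPA. That call was lost when library totals replaced TMM factors in the same 5 libraries, at -0.80 (edgeR adjusted p = 0.0577); that setting called 1.28% of genes lower, S100a11 among them. The untreated libraries themselves were spread: untreated replicate 3 had 1.63 times the CPM of untreated replicate 1.

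S100a6, or calcyclin, is a protein of proliferating cells that binds annexins and the ubiquitin-ligase adaptor CacyBP. It stood at 410, 1468 and 526 CPM in untreated replicates 1, 2 and 3, and at 424, 332 and 310 CPM in IPA replicates 1, 2 and 3. Untreated replicate 2 was far above the rest, and the groups overlapped, because IPA replicate 1 was above untreated replicate 1. With TMM factors the same libraries read 403, 1946 and 514 CPM untreated and 381, 307 and 293 CPM with IPA, without overlap. Ranked by read count within each library, S100a6 was 210th, 61st and 157th among all IDs in the untreated replicates and 241st, 370th and 419th in the IPA replicates. These ranks are not corrected for gene length and serve to compare libraries only. The fitted log2 fold change was -1.55 ± 0.61 over 6 libraries (interval -2.98 to -0.11; edgeR adjusted p = 0.657). In the 5 libraries without untreated replicate 2 it was -0.51 ± 0.15 (interval -0.83 to -0.19; edgeR adjusted p = 0.068), which missed the threshold.

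**Figure D1:**
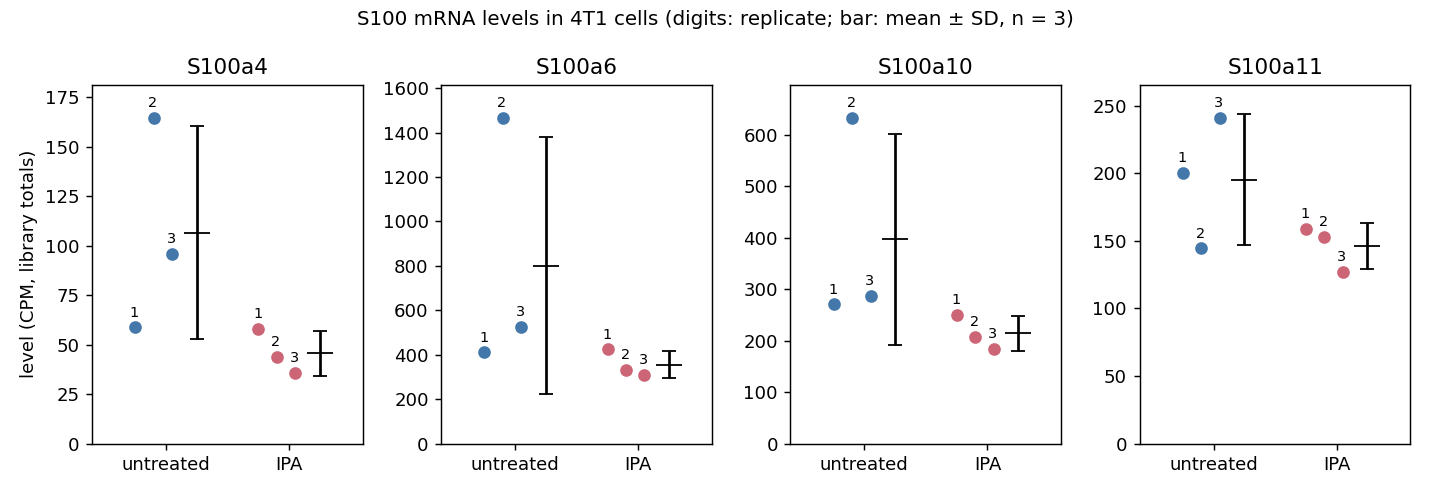
Levels of 4 S100 mRNAs in CPM of the library total (y axis from 0) in untreated and IPA libraries, each point a library with its replicate number and the bar the mean ± SD of 3. Untreated replicate 2 is the highest library for S100a4, S100a6 and S100a10 and the lowest untreated one for S100a11, and IPA replicate 1 is the highest IPA library in each panel.

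S100a10, or p11, is the partner of annexin A2 in a complex that carries ion channels to the cell surface and binds plasminogen there. Unlike the other family members here its EF hands no longer bind calcium. Its level was 270, 633 and 286 CPM in untreated replicates 1, 2 and 3 and 250, 208 and 183 CPM in IPA replicates 1, 2 and 3. The groups did not overlap, and untreated replicates 1 and 3 lay close together, 1.06-fold apart. The fitted log2 fold change was -1.23 ± 0.48 over 6 libraries (interval -2.36 to -0.10; edgeR adjusted p = 0.657). Without untreated replicate 2 it was -0.49 ± 0.14 (interval -0.79 to -0.20; edgeR adjusted p = 0.0544), just short of the threshold.

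S100a11, or calgizzarin, binds annexin A1 and takes part in membrane repair and growth control. It stood at 199.97, 144 and 241 CPM in untreated replicates 1, 2 and 3, and at 159, 153 and 127 CPM in IPA replicates 1, 2 and 3. Here untreated replicate 2 was the low untreated library, below 2 of the 3 IPA libraries, and so the groups overlapped. TMM factors multiply the library size, by which counts are divided. The factor was 0.754 for untreated replicate 2 and 1.02 to 1.11 for the other libraries. With these factors the values were 196, 191 and 236 CPM untreated and 143, 141 and 120 CPM with IPA, without overlap. The fitted log2 fold change was -0.63 ± 0.20 over 6 libraries (interval -1.10 to -0.16; edgeR adjusted p = 0.657). With that library left out, S100a11 fell by 0.71 ± 0.14 (interval -0.99 to -0.42; edgeR adjusted p = 0.00694), a level 1.63-fold lower with IPA. It was the S100 gene whose estimate moved least when that library was left out.

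The 4 abundant genes differed in how much of their estimate rested on untreated replicate 2. For S100a6 the log2 fold change went from -1.55 to -0.51 without it, for S100a10 from -1.23 to -0.49 and for S100a4 from -1.56 to -0.91. For S100a11 it went from -0.63 to -0.71. The intervals without that library lay below 0 for each of the 4. In that fit 4312 of 25592 genes had an unadjusted p under 0.05 in either direction, which is when this interval leaves out 0. The median of the 4 was -0.61, against -0.04 over all genes tested. Over all 6 libraries the median of the 4 was -1.39, against -0.08 over all genes. Library totals in place of TMM factors moved that median over all genes to 0.13 and the median of the 4 to -1.03. The 4 kept a negative sign, where 42.5% of all genes had one. In the distribution of all genes' fold changes without untreated replicate 2, S100a4 was at the 6.9th percentile, S100a11 at the 10.6th, S100a6 at the 16.9th and S100a10 at the 17.5th. All 4 lay in the lower part of the distribution and not at its edge. They do not stand for the other S100 genes, which were not analysed here.

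**Figure D2:**
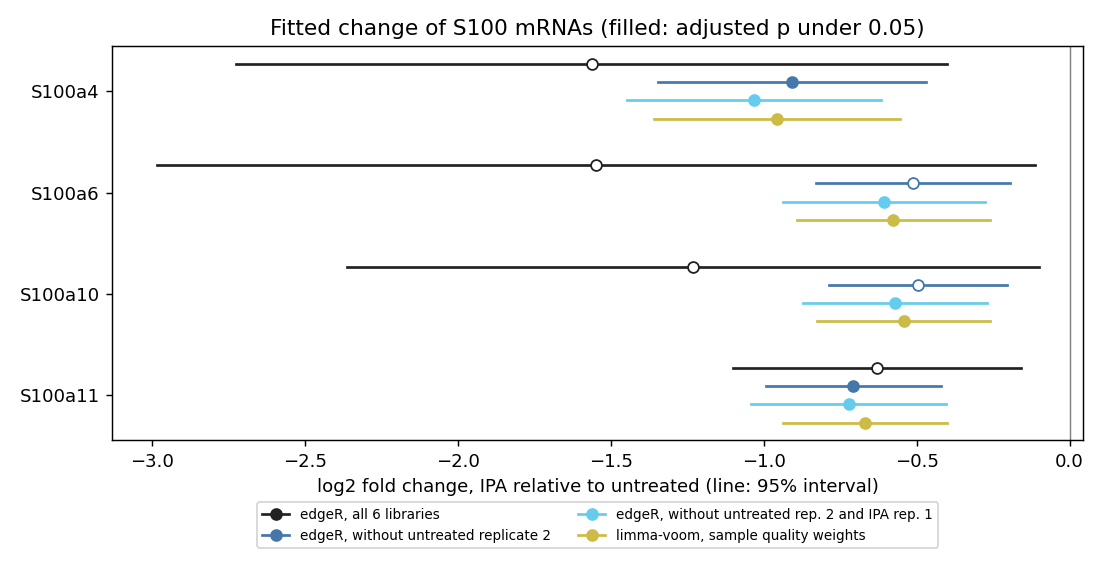
Fitted log2 fold change of each S100 mRNA, IPA relative to untreated (x axis), under 4 fits, with 95% intervals as lines and filled points where the adjusted p is under 0.05. The 6-library points are open for all 4 genes, and without untreated replicate 2 the points of S100a4 (-0.91) and S100a11 (-0.71) are filled.

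S100a6 and S100a10 were near the threshold in the 5 libraries, and their calls followed the setting. With library totals in place of TMM factors they lay further from it, with edgeR adjusted p-values of 0.158 and 0.133. With IPA replicate 1 left out as well, which leaves 2 libraries a group, edgeR called 4 of the 4 lower, and 3.05% of 24979 genes. The log2 fold changes were then -1.03 for S100a4, -0.61 for S100a6, -0.57 for S100a10 and -0.72 for S100a11, with edgeR adjusted p-values of 0.00662, 0.0313, 0.0273 and 0.0111. IPA replicate 1 was the highest of the 3 IPA libraries for each of the 4 genes, so leaving it out lowered the IPA levels by construction. The larger falls and added calls are therefore no separate support. IPA replicate 1 held 3410411 counts against 41029847 and 43593509 in the other IPA libraries. The part of its depth in the results was not tested. The limma-voom fit with quality weights gave untreated replicate 2 a weight of 0.0388 and the others 1.27 to 4.37. The 4 genes had log2 fold changes in it from -0.96 for S100a4 to -0.54 for S100a10. DESeq2 on the 5 libraries called 656 of 25592 genes lower (2.56%), and the 4 S100 genes with them. Only 17156 of these 25592 genes were given an adjusted p by DESeq2.

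**Figure D3:**
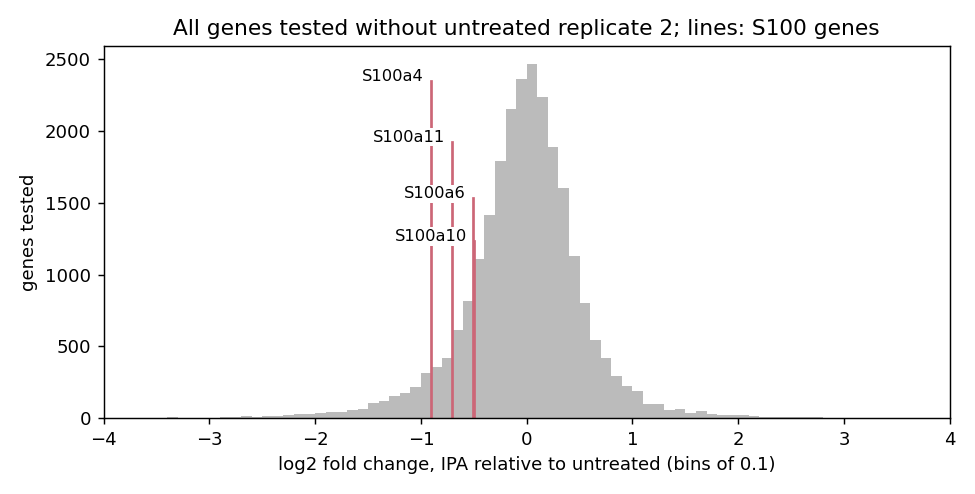
Number of genes (y axis) by log2 fold change in bins of 0.1 (x axis) over the 25592 genes tested without untreated replicate 2, with a line at each of 4 S100 genes. The S100 lines lie between -0.91 and -0.49, left of the centre and inside the body of the distribution.

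The order of the libraries can also be counted. On the scale of library totals the 3 IPA libraries were all below the 3 untreated ones for S100a4 and S100a10, 2 of the 4 genes, where 6.38% of all 24935 genes tested showed such an order. With TMM factors they were below for 4 of the 4 genes, against 10.8% of all genes. Together the 6 S100 genes made up 0.094%, 0.241% and 0.115% of all reads counted in untreated replicates 1, 2 and 3, and 0.0891%, 0.0736% and 0.0656% in IPA replicates 1, 2 and 3. S100a6 alone gave 43.7% to 60.9% of these reads, the highest share being in untreated replicate 2.

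Untreated replicate 2 thus held high levels of 3 S100 mRNAs and not of the fourth. On the TMM scale its level was 2.88 times the mean of untreated replicates 1 and 3 for S100a4, 4.24 times for S100a6, 3.08 times for S100a10, and 0.886 times for S100a11. Among all genes tested these deviations were at the 87.5th, 93.6th, 88.7th and 48.3rd percentile, where the middle 50% of genes ran from -0.95 to 0.81 on the log2 scale. The spread of this library was wide for genes in general, and no S100 gene was at its extreme. Whatever set that library apart was not tested here.

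Ratios between the genes within a library need no library size, and they show the same split. The count ratio of S100a6 to S100a11 was 2.05, 10.2 and 2.18 in untreated replicates 1, 2 and 3, and 2.67, 2.17 and 2.45 in IPA replicates 1, 2 and 3. Apart from untreated replicate 2 the 5 libraries of both groups stayed within that narrow band. The ratio of S100a10 to S100a11 was 1.35, 4.38 and 1.19 untreated and 1.58, 1.36 and 1.45 with IPA. Its mean log2 difference was -0.39 (exact permutation test, two-sided p = 1), and 0.20 without untreated replicate 2 (exact permutation test, two-sided p = 0.2), so the direction rested on that library. The ratio of S100a4 to S100a6 was 0.143, 0.112 and 0.182 untreated and 0.136, 0.131 and 0.115 with IPA. Its mean log2 difference was -0.17 (exact permutation test, two-sided p = 0.5). It was -0.35 without untreated replicate 2 (exact permutation test, two-sided p = 0.1, the smallest that 2 against 3 can give), and the sign turned without untreated replicate 3, at 0.0038. A test of 3 libraries against 3 cannot give a p below 0.1, so no ratio could pass. These were the 2 ratios tested, and after Benjamini-Hochberg adjustment over both each p was 1.

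**Figure D4:**
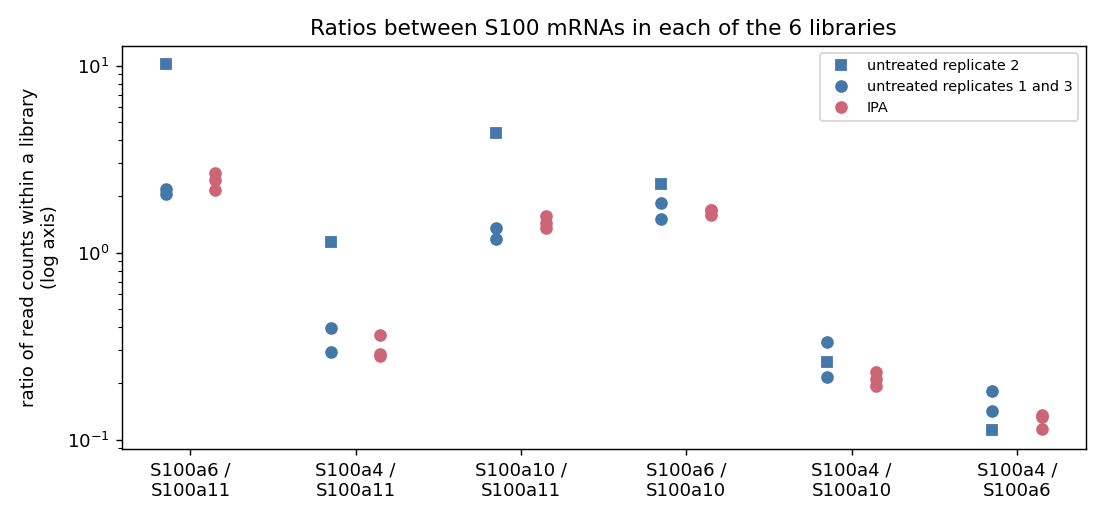
Ratio of read counts of 2 S100 genes within each library (log y axis) for 6 pairs of genes, squares marking untreated replicate 2 and circles the other libraries. The square is far above the circles in the 3 pairs with S100a11 as denominator (10.2, 1.14 and 4.38) and nearer to them in the pairs without it.

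Over the 6 libraries the pair with the narrowest range was S100a6 and S100a10, with a ratio of 1.69, 1.595 and 1.69 in IPA replicates 1, 2 and 3 and of 1.52, 2.32 and 1.84 in untreated replicates 1, 2 and 3. The ratio of S100a4 to S100a10 was 0.231, 0.210 and 0.194 with IPA and 0.217, 0.260 and 0.335 untreated. In that pair untreated replicate 3, and not untreated replicate 2, was the highest library. Of the 4 abundant genes S100a4 varied most in CPM between untreated replicates 1 and 3, and S100a10 least. These 2 ratios are given without a test.

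S100a8 and S100a9, the subunits of calprotectin, are among the most abundant proteins of neutrophils and also occur in some epithelial and tumour cells. S100a8 had 0, 0 and 20 counts in untreated replicates 1, 2 and 3 and 0, 8 and 0 in IPA replicates 1, 2 and 3. S100a9 had 1, 0 and 10 counts in the untreated replicates and 0, 4 and 0 in the IPA replicates. The highest level of either was 0.378 CPM, for S100a8 in untreated replicate 3. A count of 0 still allows up to 3 counts, which is 0.0509 CPM in untreated replicate 2, the deepest library, and 0.88 CPM in IPA replicate 1, the shallowest. Intervals and limits of this kind cover counting error only.

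The reads of both genes lay in the same libraries, untreated replicate 3 and IPA replicate 2, 1 of each group. These 2 libraries held 28 of the 28 S100a8 counts and 14 of the 15 S100a9 counts, while they held 43.8% of all counts. Among 7697 IDs with 10 to 50 counts in all, 1.9% had at least 90% of them in these 2 libraries. The 2 libraries were picked from the counts of S100a8 and S100a9, so this share does not measure how unusual the pattern is. The exact Poisson interval of S100a8 in untreated replicate 3, 0.231 to 0.584 CPM, lay above the 0.148 and 0.0509 CPM that a count of 0 allows in untreated replicates 1 and 2. In IPA replicate 2 the interval was 0.0792 to 0.362 CPM, its lower end close to the 0.0731 CPM that a count of 0 allows in IPA replicate 3. The interval is two-sided and the limit at a count of 0 one-sided, so these values do not separate IPA replicates 2 and 3. S100a8 had 66.7% of the reads of the pair in each of the 2 libraries, with exact Clopper-Pearson 95% intervals of 47.2 to 82.7% for untreated replicate 3 and 34.9 to 90.1% for IPA replicate 2. No difference between untreated and IPA cells was detected for these 2 genes, which had few counts in few libraries. With no filter on low counts the log2 fold change was -0.83 for S100a8 (interval -5.56 to 3.91) and -1.04 for S100a9 (interval -5.36 to 3.29). Untreated replicate 2, the library that stood apart, had 0 counts of either gene.

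**Figure D5:**
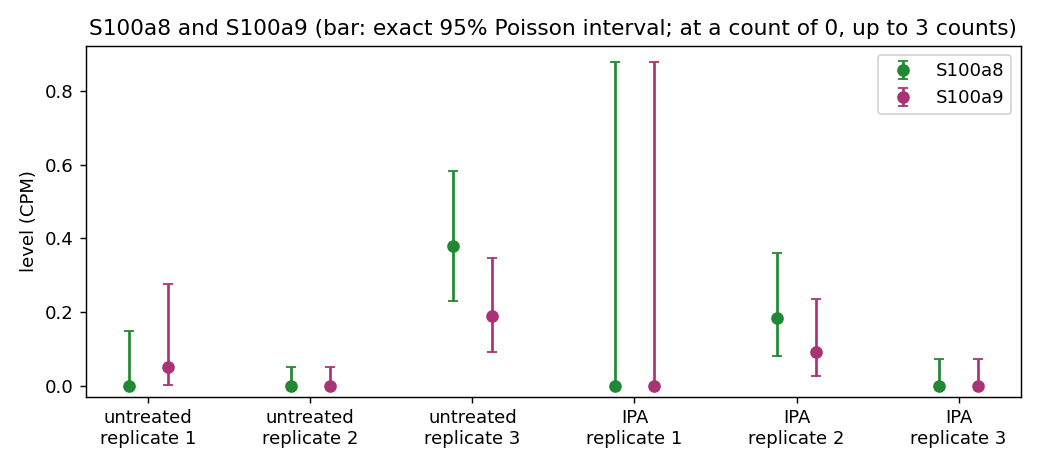
Level of S100a8 and S100a9 in CPM (y axis) in each of the 6 libraries, with exact 95% Poisson intervals as bars, or, at a count of 0, bars up to 3 counts. The levels above 0.1 CPM are in untreated replicate 3 and, for S100a8, IPA replicate 2, and the wide bars of IPA replicate 1 reflect its 3410411 counts.

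How many other genes followed each S100 gene was measured by Pearson's r of log2 CPM over the 6 libraries, among 13109 genes with a mean of at least 5 CPM. An r above 0.95 was found with 1163 genes for S100a6, 1012 for S100a10, 219 for S100a4 and 24 for S100a11. With untreated replicate 2 left out these numbers became 102, 217, 123 and 225. In that order these were 8.87%, 7.72%, 1.67% and 0.183% of the 13109 genes over 6 libraries. Over 5 libraries they were 0.778%, 1.66%, 0.938% and 1.72%. An r above 0.95 is easier to reach with 5 libraries than with 6. The rise for S100a11 therefore cannot be read as a change of its pattern alone. For S100a6, S100a10 and S100a4 the number fell even so. The libraries share their depth and handling across genes, so these numbers describe likeness only. The genes most like each S100 gene are not named, since the IDs are not paired with gene names.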

How the data were processed

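RNA was measured in 6 samples, grouped by their titles; treated columns carry a shorter abbreviation and were matched by letter and number. The authors deposited whole-number read counts for each Ensembl ID, without normalization, per the file headers. Builds GRCm38 and mm10 stand in the submitters' processing notes. Not given in the sources used here are the aligner, counter, annotation release and treatment of strand and of reads with several matches. Symbols of the 6 members came with the definition of the gene set; positions came from RefSeq (GRCm38.p6), matched by symbol for 6 of 6. That table holds 0 Ensembl IDs, so 9 further lists by symbol were not analysed here. Sequences were not used here.

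Counts were tested across all genes with edgeR 4.0.16 (robust quasi-likelihood F-test, TMM, filterByExpr) in R 4.3.3, adjusted by Benjamini-Hochberg, threshold 0.05. A standard error is the log2 fold change divided by the square root of F. Log2 CPM used a prior count of 2. The procedure was tested on simulated data. Alternatives were DESeq2 1.42.0, limma-voom (limma 3.58.1) with and without quality weights, other factors and filters, the replicate block, and leaving out libraries. Depth was 3410411 to 58924711 counts, so 3 counts equal 0.88 to 0.0509 CPM. No replicates agreed within sampling noise (chi-square per degree of freedom at least 7.11 within a group). All 6 S100 genes are named by rule. Members, lists and alternatives were chosen with earlier results of these data known.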

Additional observations from a re-analysis of the deposited data

How the results depend on the processing

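S100a4, S100a6, S100a10 and S100a11 had negative log2 fold changes in the main comparison and in each of 18 alternatives. S100a11 passed in 5 of these, S100a4 in 4, and S100a6 and S100a10 in 3 each. Each passing setting left out untreated replicate 2 or, in limma-voom with quality weights, gave it a weight of 0.0388. No setting that kept that library at full weight called an S100 gene. Over the alternatives the log2 fold changes ran from -1.81 to -0.80, -1.81 to -0.40, -1.46 to -0.39 and -0.72 to -0.42 for S100a4, S100a6, S100a10 and S100a11. Of all genes tested, 54.5% had a negative log2 fold change in the main fit. In the alternatives this share ran from 42.5% with library totals to 59.3% with no filter on low counts. The alternatives reuse the same 6 libraries and are not independent of each other. Over all 6 libraries 0 S100 genes and 0 genes in either direction passed in the main fit. One setting without a filter on low counts, and one with library totals, called 1 gene higher. DESeq2 called 45 higher and 83 lower, with 18266 of 24935 genes given an adjusted p. Limma-voom with quality weights called 492 higher and 755 lower, 4 S100 genes among the lower. Without untreated replicate 2, library totals gave 691 higher and 327 lower with 1 S100 gene lower, DESeq2 gave 645 and 656 with 4, and leaving out IPA replicate 1 as well gave 719 and 763 with 4. When single libraries were left out, the number of higher genes ran from 0 to 322, of lower genes from 0 to 564 and of lower S100 genes from 0 to 2; each number above 0 came from the fit without untreated replicate 2. The cause was not tested.

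With the replicate block 0 genes and 0 S100 genes passed; the log2 fold changes were -1.37, -1.16, -1.01 and -0.63 for S100a4, S100a6, S100a10 and S100a11. Samples with the same number had deviations that correlated at -0.0771, 0.0183 and 0.161, so the numbers were not taken to pair the samples. The log2 difference of the S100a4 to S100a6 ratio was lowest, at -0.346, when untreated replicate 2 was left out and highest, at 0.00384, when untreated replicate 3 was. That of S100a10 to S100a11 was lowest, at -0.738, when untreated replicate 3 was left out and highest, at 0.204, when untreated replicate 2 was. No ratio of S100a8 to S100a9 was tested, since 3 libraries had 0 counts of both. Depth limits S100a8, S100a9 and IPA replicate 1 most.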
